A study of Mus musculus with 32 samples.

Results

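Accessible regions of the mouse limb bud that carry at least 2 copies of the binding motif of ETV2 were compared with regions that carry 1 copy. The summits of the 32 deposited ATAC-seq lists were pooled without the mitochondrial genome, summits 200 bp or less apart were chained, and regions seen in at least 2 lists were kept. The 500 bp around the middle of each region were then searched on both strands for the ETV2 consensus, which stands for the 6 words AAGGAAAT, AAGGAAGT, CAGGAAAT, CAGGAAGT, GAGGAAAT and GAGGAAGT. Of 97754 regions, 3101 (3.17%) had 2 or more non-overlapping matches and are called members here, 17970 (18.4%) had 1 match and 76683 (78.4%) had none. At least 1 match was thus present in 21.6% of all windows of this length.

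ATAC-seq uses the Tn5 transposase, which inserts adapters where DNA is free of nucleosomes, and a summit is the point where a peak of insertions is highest. EYFP+ cells were 3 pools of E10.5 forelimb cells (E10.5 FL EYFP+) and 3 of hindlimb cells (E10.5 HL EYFP+) from Etv2-EYFP embryos, sorted for EYFP and against CD31, TIE2 and CD45, with the same pools giving both limbs. The posterior library held Shh-EGFP+ cells and the anterior library held anterior hindlimb of Shh-EGFP embryos, both at E10.5 and 1 library each, and 1 further library held E9.5 hindlimb. The Etv2 conditional knockout (CKO; HoxB6-Cre Tg/+; Etv2 fl/-) gave 2 libraries of E10.5 posterior hindlimb and 5 labelled E10.25, against which stood 2 wild-type limb libraries labelled E10.25. Per the study's methods HoxB6-Cre acts throughout the hindlimb precursor but only in part of the forelimb, and these libraries pool embryos. Overexpressing embryos (Etv2OE), in which HoxB6-Cre Tg/+ and ROSA26-STOP-rtTA-IRES-EGFP Tg/+ let doxycycline turn on HA-tagged Etv2 from iHA-Etv2 Tg/+, gave an anterior (A) and a posterior (P) library from each of 3 embryos, and littermate controls lacking a part of this system gave the same from 4 embryos. All 14 of these libraries are labelled E10.5. The study's methods put the doxycycline injections at E9.5 and E10.5 and the harvest on a later day, so the stage of these embryos is uncertain. The lists held 13763 to 54676 summits and no read counts, so the depth is unknown and a missing summit was not called at that depth.

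ETV2 is an ETS-family transcription factor best known for specifying endothelial and blood progenitors. ETS proteins bind a GGAA core through a winged helix-turn-helix domain, and the bases on either side of the core set which family members bind well. In the posterior limb bud the ZRS, a distant enhancer in an intron of Lmbr1 that drives Shh, holds several ETS sites, and activating and repressing ETS proteins compete there.

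The member at the ZRS is printed first because it is the enhancer the study turns on. It is followed by the 3 members that separated Etv2OE libraries from 3 of the 4 control embryos, by members that differed between EYFP+ or wild-type libraries and CKO libraries, and by promoters of genes from fixed lists. All are plus-strand mm10 sequence (GRCm38.p6) read 5′ to 3′, from 10 bases before the first match to 10 bases after the last, with the matches in capitals. A match on the minus strand therefore reads as its reverse complement, such as ACTTCCTG for CAGGAAGT.
ZRS, intron of Lmbr1, chr5:29314960-29315092: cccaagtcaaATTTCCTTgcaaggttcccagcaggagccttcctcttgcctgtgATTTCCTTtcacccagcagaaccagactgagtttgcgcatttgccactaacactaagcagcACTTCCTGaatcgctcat
Intron of Nrxn3, chr12:89953386-89953566: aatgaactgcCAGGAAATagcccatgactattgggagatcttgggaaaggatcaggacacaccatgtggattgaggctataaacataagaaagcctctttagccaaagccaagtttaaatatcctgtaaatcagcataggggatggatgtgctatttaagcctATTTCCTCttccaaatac
Intron of Cubn, chr2:13413640-13413710: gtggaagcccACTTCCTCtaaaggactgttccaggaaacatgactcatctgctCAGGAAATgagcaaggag
Intron of Adgrg6, chr10:14464208-14464299: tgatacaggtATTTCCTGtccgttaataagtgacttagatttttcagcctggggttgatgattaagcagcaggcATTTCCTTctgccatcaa
Intergenic, near Olfr1421-ps1, chr19:12002179-12002366: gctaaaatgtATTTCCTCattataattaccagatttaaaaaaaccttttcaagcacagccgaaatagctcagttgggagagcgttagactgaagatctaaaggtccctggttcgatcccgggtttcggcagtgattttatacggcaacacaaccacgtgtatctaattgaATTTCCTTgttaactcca
Intergenic, near Gm49665, chr16:70725804-70725974: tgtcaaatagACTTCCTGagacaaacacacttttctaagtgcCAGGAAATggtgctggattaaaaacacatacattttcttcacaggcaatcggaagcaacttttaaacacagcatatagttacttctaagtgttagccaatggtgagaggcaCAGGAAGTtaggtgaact
Intron of Cfap45, chr1:172530598-172530719: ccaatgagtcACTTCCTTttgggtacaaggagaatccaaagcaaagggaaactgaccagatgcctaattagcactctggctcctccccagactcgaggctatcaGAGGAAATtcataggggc
Promoter of Rps13, chr7:116334145-116334189: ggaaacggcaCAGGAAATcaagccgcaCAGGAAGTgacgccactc
Promoter of Elk3, chr10:93310952-93311012: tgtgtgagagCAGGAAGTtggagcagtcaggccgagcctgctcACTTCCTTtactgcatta

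Members lay away from promoters more often than other regions. With a promoter taken as 500 bp or less from an annotated transcription start, 7.93% of members were promoters, against 12.5% of regions with 1 match and 19.8% of those with none. Introns held 45.6% of members and intergenic sequence 43.5%, and the median distance to a start was 18854 bp, against 15586 bp with 1 match and 11368 bp with none. The median GC content of the window was 46.2% in members, 47.2% with 1 match and 49.6% with none. All 32 lists held 2.26% of members, against 4.26% of regions with 1 match and 6.45% of all regions. Of these 70 members, 52 were promoters, and their median GC content was 59.7%.

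Among members, 2705 had 2 matches, 338 had 3 and 58 had 4 or more. Regions with exactly 2 matches had them in the same orientation in 52.7%, facing each other in 25.3% and facing away in 22.0%. Their median start-to-start distance was 142 bp, and 140 pairs lay 20 bp or less apart. The most frequent single distance was 20 bp, with 24 regions. CAGGAAGT was the most used word at 20.8% of the matches in members, close to its 19.9% in regions with 1 match, and GAGGAAGT the least used at 13.6%.

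**Figure D1:**
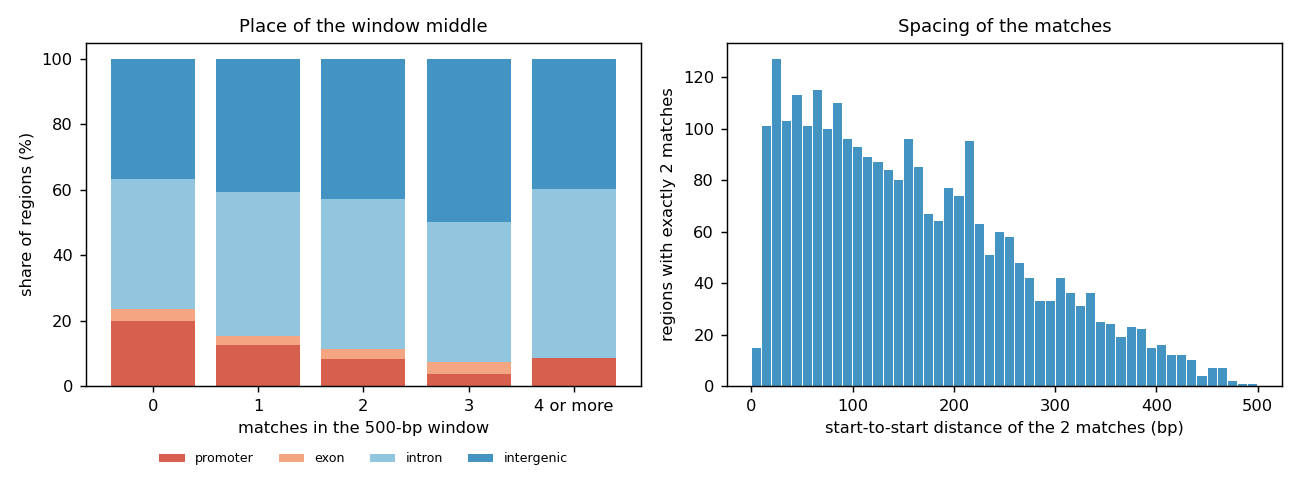
Left, share of regions (%) whose middle lies in a promoter, exon, intron or intergenic sequence, by the number of matches in the 500-bp window. Right, number of regions with exactly 2 matches by the start-to-start distance of the matches in bins of 10 bp. The promoter share goes from 19.8% with no match to 3.85% with 3 matches, and is higher again with 4 or more.

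Some members with many matches were repeat arrays rather than scattered sites. Of the 58 members with 4 or more matches, 16 had 2 successive distances that were equal, and these were seen in a median of 2 lists, against 6.5 lists for the other 42. The member with the most matches by the naming rule lay on chromosome 4, with 15 matches mostly 30 bp apart, 96.6% of its window was masked as repeat, and it was in 3 lists. Another with 15 matches, in an intron of A230001M10Rik on chromosome 3, had steps of 31 bp and was in 2 lists. One more, in an intron of Tmem163 on chromosome 1, had 11 matches in steps of 20 bp and its multiples. The intron of Map6 held 11 matches and that of Syne1 held 10 matches 49 bp apart. The 20 members with equal steps among those of 3 or more matches were listed most often by the CKO library E10.25 replicate 2, which listed 8, and not at all by E10.5 HL EYFP+ pool 758 and CKO library E10.25 replicate 4.

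Words of other factors were searched in the same windows on both strands. The FOX:ETS composite GGAANTGTT, which lies in enhancers of early endothelium and can overlap an ETV2 match across GGAA and the 2 bases after it, was in 6.03% of members, 4.36% of regions with 1 match and 2.45% of all regions. In proportion, members and regions with 1 match lay nearer to each other for the other words, except CCGGAAGT. In percentage points, the GATA words and the E-box word CAGCTG (33.2% and 31.2%) differed more than the FOX:ETS composite. GATA words (AGATAA or TGATAA) were in 36.8% of members, 34.1% of regions with 1 match and 30.4% of all regions, and the AP-1 word TGANTCA in 15.0%, 13.6% and 12.1%. The homeodomain word TAATTA, which LHX factors of the limb bud bind, was in 19.3%, 18.6% and 16.3%, and HOX words (TTTATGG or TTTATTG) in 23.8%, 22.2% and 19.2%. The TEAD word GGAATG, which like the ETV2 consensus contains GGAA, was in 27.9%, 28.5% and 25.9%. By contrast, CCGGAAGT, an ETS word typical of promoters that the consensus cannot match in register, was in 30 members (0.967%), 1.46% of regions with 1 match and 1.73% of all regions. Each ETV2 match is also a place where the bases that follow can complete the FOX:ETS composite, so members have more such places. Overlaps of this kind were not counted apart. A match is only a description of the letters, and GC content differed between these classes.

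Few members lay nearest to the start of a gene on the fixed lists. Of 57 limb patterning genes, 4 had a member nearest to their start, namely Bmp2, Lhx9 with 2 members, Meis2 and Ptch1, the receptor of SHH. Of 38 endothelial and blood genes, 5 had one: Emcn, Kdr, Mef2c, Notch1 and Tal1. These made 0.161% of members for either list, against 0.245% of regions with 1 match for either list. Of all regions, the limb list took 0.311% and the endothelial and blood list 0.152%. The Tal1 member, 3654 bp from the start of this blood and endothelial regulator, was in 28 lists, whereas those at Kdr, the VEGF receptor, and Emcn, a sialomucin of veins and capillaries, were in 3 lists each. The ETS list gave 2 of its 26 genes, Elk3 and Etv6, and the ribosomal list 5 of 177, of which Rps6ka2 encodes a kinase taken in by its name only. The ETS list made 0.0645% of members, 0.200% of regions with 1 match and 0.119% of all regions. For the ribosomal list these shares were 0.161%, 0.228% and 0.287%.

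One embryo stood apart from its label, and the results of groups that hold it are given with and without it. In the whole lists, control embryo 1 listed 45.7% of members in A and 58.0% in P, against 42.3% and 54.2% of regions with 1 match. The log2 ratio of these shares, the share of members listed over the share of regions with 1 match listed, was 0.11 in A and 0.10 in P. Control embryos 2 to 4 had log2 ratios of -0.16 to -0.12 in A and of -0.17 to -0.12 in P, and Etv2OE embryos of 0.00 to 0.17 in A and of -0.05 to 0.06 in P. Its label was kept, and what set it apart was not tested.

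Outside the Etv2OE experiment, members were listed less often than regions with 1 match in each of the 18 libraries. The log2 ratio was -0.14 to -0.10 in the 3 E10.5 FL EYFP+ libraries and -0.21 to -0.09 in the 3 E10.5 HL EYFP+ libraries. It was -0.21 in the posterior library, -0.36 at E9.5 and -0.55 in the anterior library, -0.20 and -0.11 in wild type at E10.25, -0.73 to -0.19 in the 5 CKO libraries of E10.25 and -0.24 and -0.15 in the 2 of E10.5. The lowest values belonged to the shortest lists, the CKO library E10.25 replicate 2 with 15626 summits and the anterior library with 13763. Promoters made 51.9% and 42.5% of the members listed there, against 9.90% to 29.95% in the other 30 libraries. Lists of equal length were therefore used for the comparisons that follow, except where whole lists are named.

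**Figure D2:**
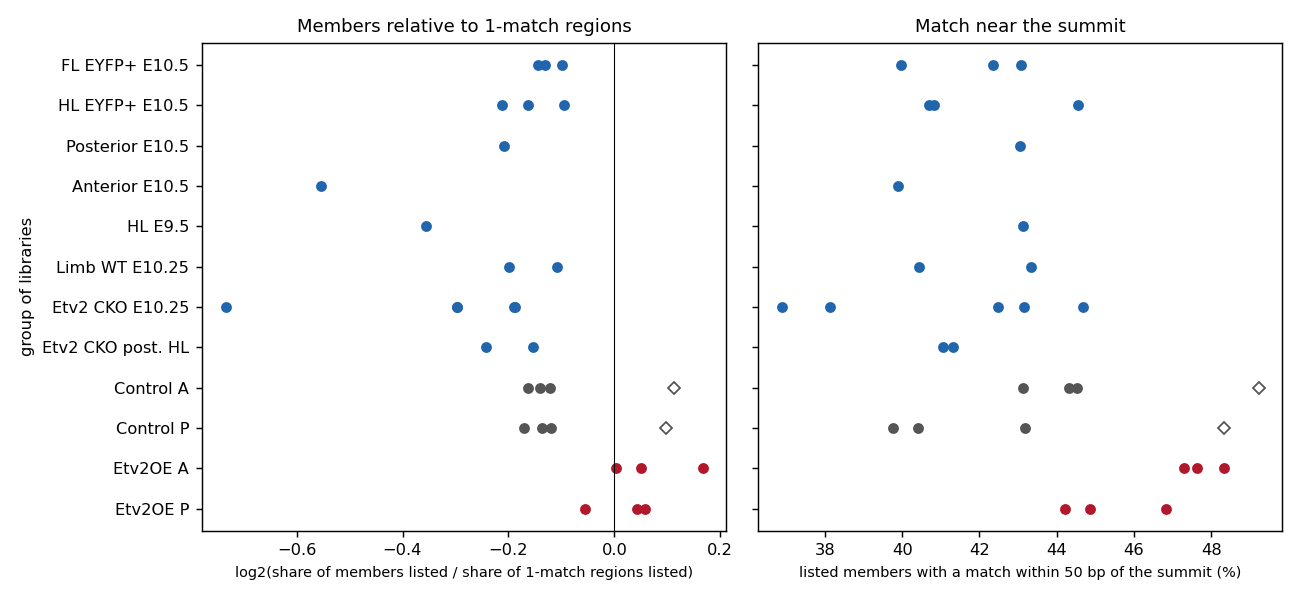
Each point is 1 library in its whole list, by group. Left, log2 of the share of members listed over the share of 1-match regions listed; right, share (%) of listed members with a match within 50 bp of the summit. Open diamonds are control embryo 1, which lies with the Etv2OE libraries (red) and apart from the other control libraries (grey).

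Overexpression of Etv2 asks whether regions with several motifs gain accessibility when the factor is in excess. In lists of 30000 summits, averaged over the A and P library of each embryo, the log2 ratio was -0.06, 0.04 and 0.04 in Etv2OE embryos 7, 9 and 10. It was 0.02 in control embryo 1 and -0.20, -0.21 and -0.23 in control embryos 2, 3 and 4. The groups overlapped through control embryo 1, and each Etv2OE embryo was above the other 3 controls. Means were 0.01 ± 0.05 (SD, n = 3) and -0.15 ± 0.12 (SD, n = 4), a difference of 0.16 with p = 0.0857 in a two-sided exact permutation test, in which 0.0286 is the smallest possible. Without control embryo 1 the difference was 0.22, with p = 0.1, the smallest this exact test can give with 3 embryos a side.

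Etv2OE embryos 7, 9 and 10 lay above control embryos 2 to 4 within each kind of member drawn in the plot of classes, except promoters, where the ranges overlapped. Control embryo 1 was set apart by this same ratio, and the classes are overlapping parts of the same members in the same embryos. The classes are therefore no separate support for a difference between the groups. At members with 3 matches, Etv2OE embryos had log2 ratios of -0.26 to 0.03 and the controls other than embryo 1 lay below, the group mean being -0.08 ± 0.15 (SD, n = 3) against -0.46 ± 0.24 (SD, n = 4). At members with 2 matches the means were 0.02 ± 0.04 and -0.11 ± 0.11, and at those with 4 or more -0.40 ± 0.23 and -0.86 ± 0.11. Members with matches within 50 bp of each other gave -0.07 ± 0.07 and -0.30 ± 0.15, those with wider spacing 0.02 ± 0.05 and -0.11 ± 0.11. Promoter members, set against promoters with 1 match, gave -0.13 ± 0.04 and -0.18 ± 0.03, while members elsewhere, set against other regions with 1 match, gave 0.14 ± 0.06 and -0.03 ± 0.13. Words ending in GGAAGT and words ending in GGAAAT both gave higher means in Etv2OE, at 0.05 ± 0.05 and -0.13 ± 0.10 where all matches were of the former kind and -0.03 ± 0.05 and -0.20 ± 0.14 where all were of the latter. Without control embryo 1 the control means were -0.16 ± 0.01 (SD, n = 3) at 2 matches, -0.58 ± 0.07 at 3 and -0.91 ± 0.05 at 4 or more. They were -0.36 ± 0.08 for close and -0.17 ± 0.02 for wider spacing, and -0.19 ± 0.03 at promoters and -0.09 ± 0.02 elsewhere. For the GGAAGT and GGAAAT words they were -0.17 ± 0.06 and -0.26 ± 0.04. Differences between these classes were not tested.

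**Figure D3:**
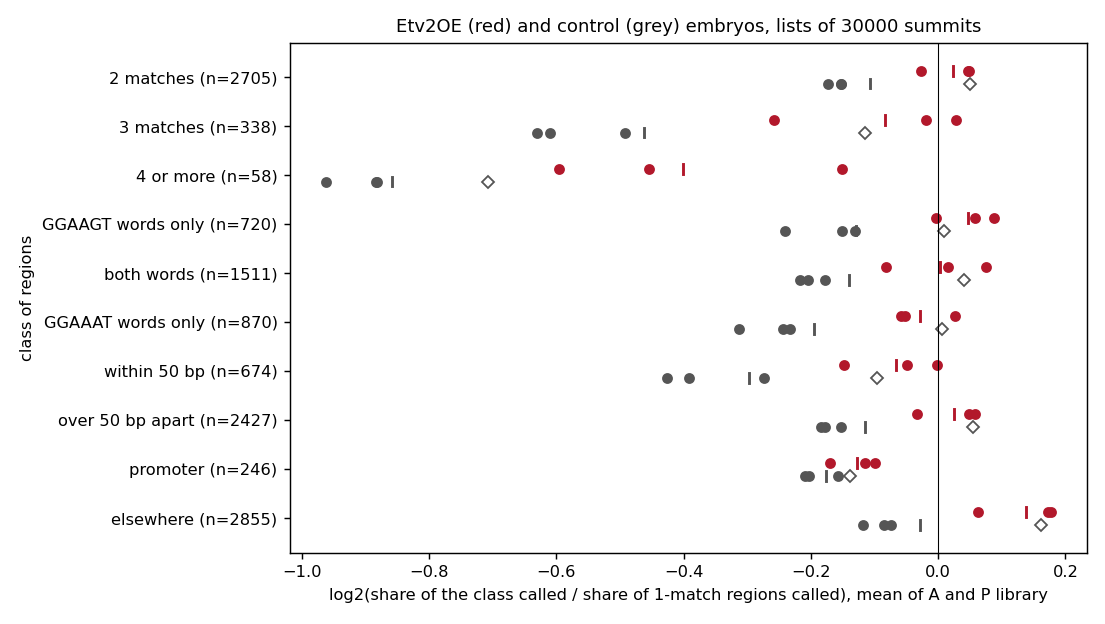
Each point is 1 embryo, the mean of its A and P library in lists of 30000 summits, and the x axis is log2 of the share of a class of members called over the share of 1-match regions called (promoters against promoters, other members against other regions, in the last 2 rows). Vertical ticks are means of 3 Etv2OE (red) and 4 control (grey) embryos, and the open diamond is control embryo 1, which lies nearer to the Etv2OE embryos than the other controls in most classes.

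Summits of listed members lay nearer to a match in the same embryos. In whole lists, a match was within 50 bp of the summit at 45.9%, 47.1% and 46.6% of the members listed in Etv2OE embryos 7, 9 and 10, and at 48.8% in control embryo 1. In control embryos 2, 3 and 4 it was 42.1%, 41.8% and 43.8%. Regions with 1 match gave 24.6% to 25.4% in Etv2OE embryos, 24.9% in control embryo 1 and 22.8% to 23.5% in the other controls, so that in both classes control embryo 1 and the Etv2OE embryos lay above control embryos 2 to 4. The other 18 libraries gave 36.9% to 44.7% at members. This measure was noticed in the data and was not tested. It was taken in whole lists, which are longer in all control embryos than in Etv2OE embryos. It was not repeated in lists of equal length.

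Region by region, no member passed an adjusted p of 0.05 in limma on rank scores, which give 1 to the strongest summit of a list, go down towards 0 with rank and are 0 for a region not listed. Over all 46531 regions called in 2 or more libraries the background was 0% in either direction. At an unadjusted p of 0.05 or less, 104 of the 1525 members that passed this filter were higher in Etv2OE and 27 lower, 6.82% and 1.77%, against 3.16% and 3.38% of all regions and 4.35% and 2.11% of regions with 1 match. Without control embryo 1 the counts were 148 and 29, against a background of 3.45% and 3.87%, and again no member passed the adjusted threshold. In whole lists, which are longer in control embryos, the members at that p turned to 25 higher and 171 lower, and all regions to 386 and 9413. A member could pass the filter through 1 group alone, so these counts describe the members that passed.

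No member was called in every Etv2OE library and no control library, nor the reverse, where the background was 0% and 0.0043%. Without control embryo 1, 3 members were called in all 6 Etv2OE libraries and in none of the 6 libraries of control embryos 2 to 4, where 17 of 44861 regions were (0.0379%), and 0 members were in the reverse position (background 0.0267%). The same count was 1 member without Etv2OE embryo 7 (of 15 regions) or embryo 10 (of 9 regions), and 0 without any of the other 4 embryos (1 to 3 regions). Control embryo 1 called all 3 in both A and P, and 15 and 16 of the 17 regions. The first lies in an intron of Nrxn3, a neuronal adhesion gene, where the summit had places 22562, 15295 and 18659 in the A lists and 21938, 20437 and 16277 in the P lists of embryos 7, 9 and 10. Control embryo 1 had it at 20936 in A and 19835 in P, and the other control lists, the CKO lists and the EYFP+ lists did not hold it. Its rank score was 0.28 ± 0.09 (SE) higher in Etv2OE with all embryos, with an adjusted p of 0.676 in limma, and 0.36 ± 0.05 (SE) without control embryo 1, with an adjusted p of 0.263.

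The second, in an intron of Cubn, which encodes the endocytic receptor cubilin, carries its matches 43 bp apart. It was at places 11357 to 29018 in the 6 Etv2OE lists and at 23011 and 13667 in control embryo 1, and of the other control lists 3, from embryos 3 and 4, held it at 35174, 48382 and 52789, past the first 30000. Its rank score was 0.25 ± 0.12 (SE) higher in Etv2OE, and 0.34 ± 0.09 (SE) without control embryo 1, with adjusted p of 0.791 and 0.421 in limma. The third, in an intron of Adgrg6, an adhesion G-protein-coupled receptor, was at 14645 to 28406 in the Etv2OE lists and at 21002 and 14244 in control embryo 1. In 4 of the other 6 control lists it was at 30555 to 34215, just past the equal length. The rank score was 0.19 ± 0.11 (SE) higher in Etv2OE and 0.29 ± 0.05 (SE) without control embryo 1, with adjusted p of 0.838 and 0.312 in limma.

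At the ZRS, the 500-bp window that was searched covers only part of the enhancer. In this window 3 matches lay 44 and 61 bp apart within 100 bp of the middle of the member, which was in 21 lists. All 6 Etv2OE lists held it, at places 11521 to 23815, as did all 4 control P lists, at 21020 to 32926. Of the control A lists, embryo 1 held it at 25042 and embryo 2 at 38739, and embryos 3 and 4 did not. Its rank score was 0.18 ± 0.07 (SE) higher in Etv2OE, with an unadjusted p of 0.0393 and an adjusted p of 0.747 in limma, and 0.21 ± 0.08 (SE) higher without control embryo 1, with an adjusted p of 0.610. The 6 EYFP+ lists held it at 10565 to 30798, the posterior list at 11523 and both wild-type lists of E10.25 at 30114 and 33139. None of the 7 CKO lists, the anterior list or the E9.5 list held it. CKO E10.25 replicates 2 and 4 (15626 and 19734 summits), CKO E10.5 replicate 2 (28366) and the anterior list (13763) end before both wild-type places. Such lists could not hold a summit so far down. CKO E10.25 replicate 3 (42742), CKO E10.5 replicate 1 (34493) and the E9.5 list (36947) reach past both places. The member did not pass the filter at E10.25, so it was not tested there. Between the hindlimb EYFP+ pools and the E10.5 CKO the rank score differed by 0.26 ± 0.18 (SE), with an adjusted p of 0.529 in limma.

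Loss of Etv2 was examined by setting E10.5 CKO posterior hindlimb beside hindlimb EYFP+ cells of that stage, which differ in sorting as well as genotype. In lists of 25000 summits the log2 ratio was -0.15, -0.29 and -0.25 in the EYFP+ pools 748, 753 and 758 and -0.20 and -0.25 in the CKO libraries. These ranges overlapped. The means of -0.23 ± 0.07 (SD, n = 3) and -0.23 ± 0.03 (SD, n = 2) gave a two-sided exact permutation p of 0.9, and 0.1 is the smallest possible.

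Single members were called between these groups in both directions, at shares not far from those of all regions. Here and in the comparisons that follow, a member could pass the filter through 1 group alone, so the counts describe the members that passed. Of 752 members that passed the filter, 16 were higher in EYFP+ pools and 33 higher in CKO by limma at an adjusted p of 0.05, 2.13% and 4.39%, where 1.52% and 3.51% of all 29717 regions were. No member was called by limma when any 1 EYFP+ pool was left out, and the adjusted p of the members near Olfr1421-ps1 and Gm49665 was then 0.0524 to 0.0877. Called in every library of one side and none of the other were 67 members for EYFP+ (background 5.99%) and 84 for CKO (background 7.84%). At the member near Olfr1421-ps1 the 3 EYFP+ pools had places 6206, 5144 and 5430 and the CKO lists of E10.5 did not hold it, a rank score difference of 0.78 ± 0.06 (SE) with an adjusted p of 0.0190 in limma. It was also at 8927 and 9339 in wild type at E10.25 and in 1 of 5 CKO lists there, at 27010. An intron of the noncoding gene 4930500H12Rik had places 5044, 5706 and 6980 in the EYFP+ pools and was held by none of the 7 CKO lists, although both wild-type lists of E10.25 lacked it as well.

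The opposite pattern was seen near Gm49665, where the CKO lists of E10.5 had places 2932 and 2415 and the EYFP+ pools 748 and 753 had 29562 and 30263, past the equal length, and pool 758 had none. The rank score was lower by 0.89 in EYFP+ (SE 0.06), with an adjusted p of 0.0190 in limma. Near Gm23903 the CKO lists of E10.5 had places 3202 and 3630, 4 of the 5 CKO lists of E10.25 had 7059 to 14860, and wild type at E10.25 had 16908 and 13583. Wild-type limb thus shared this summit with the CKO, while 4 of 6 EYFP+ lists and all 14 lists of the Etv2OE experiment lacked it.

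At E10.25, wild-type limb was compared with the 5 CKO libraries in lists of 15000 summits. The log2 ratio was -0.46 and -0.48 in wild type and -0.66, -0.81, -0.56, -0.46 and -0.43 in CKO replicates 1 to 5, so that wild type lay inside the CKO range. The means were -0.47 ± 0.01 (SD, n = 2) and -0.58 ± 0.16 (SD, n = 5), with p = 0.524 in a two-sided exact permutation test whose smallest p is 0.0476.

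Of the 313 members that passed the filter at E10.25, 15 were higher in wild type and 1 higher in CKO by limma at an adjusted p of 0.05, 4.79% and 0.319%, against 2.44% and 0.547% of all 18653 regions and 2.53% and 0.701% of regions with 1 match. Called in both wild-type libraries and no CKO library were 23 members (background 3.51%), and 7 in the reverse position (background 1.45%). The member at the promoter of Gm20482 had places 6809 and 6727 in wild type and was in 1 of 5 CKO lists, at 28149. Its rank score differed by 0.55 ± 0.04 (SE), with an adjusted p of 0.00223 in limma, and neither CKO list of E10.5 held it. The member in an intron of Cfap45, a gene of motile cilia, had places 7470 and 6563 in wild type and 15285 to 23863 in 4 CKO lists, CKO replicate 2 lacking it. Its rank score differed by 0.53 ± 0.04 (SE), with an adjusted p of 0.00303 in limma. It stood at 2339 to 9684 in E10.5 HL EYFP+ and at 21688 and 20398 in E10.5 CKO, where the difference of 0.61 ± 0.11 (SE) had an adjusted p of 0.0510 in limma. An exon of Gm15201 on chromosome X was at 7352 and 7350 in wild type and at 16639 to 23053 in 3 CKO lists, a difference of 0.51 ± 0.04 (SE) with an adjusted p of 0.00295 in limma. In whole lists the adjusted p in limma were 0.0118 for Gm20482, 0.174 for Cfap45 and 0.230 for Gm15201, so that only the first passed. In an intron of Rb1, the retinoblastoma gene, the order was reversed, with places 17263 and 17038 in wild type and 3030 to 9999 in the 5 CKO lists, but the adjusted p was 0.103 in limma.

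**Figure D4:**
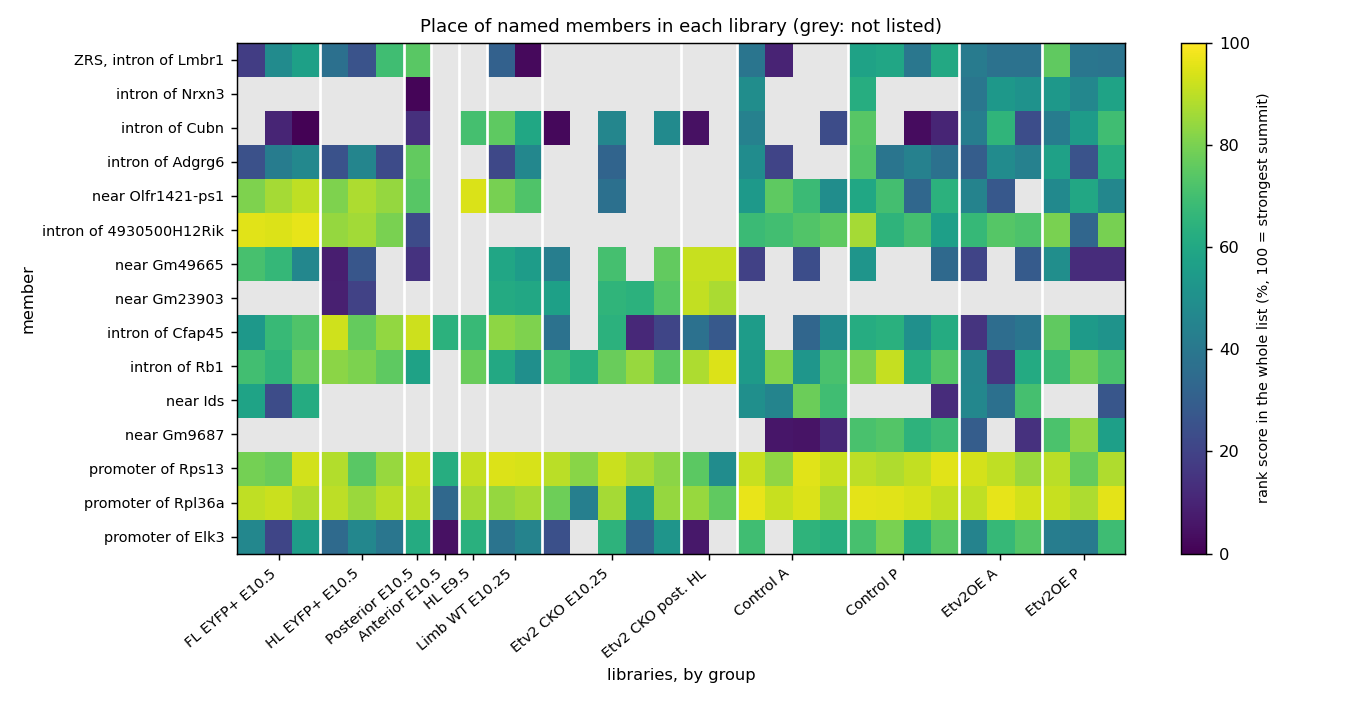
Rows are 15 named members and columns the 32 libraries by group, in replicate order. Colour is the rank score in the whole list as a percent, 100 being the strongest summit, and grey means not listed. The ZRS row is grey in all CKO columns, some of which are lists too short to reach its places in wild type. The promoters of Rps13 and Rpl36a are filled in every column.

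Forelimb and hindlimb EYFP+ cells came from the same pools. In lists of 30000 summits the log2 ratio was -0.10, -0.21 and -0.28 in forelimb and -0.11, -0.23 and -0.21 in hindlimb for pools 748, 753 and 758, so that the spread over pools was wider than the difference between limbs. The mean difference was -0.01, with p = 0.9 in the two-sided exact permutation test and p = 1.0 when signs were flipped within pools. Neither test can reach 0.05 with so few pools. No member passed an adjusted p of 0.05 in limma (background 0% in both directions). This does not show that the limbs are alike, since the power of this fit on the real lists is not known. Of 1015 members that passed the filter 41 were higher in forelimb and 51 lower at an unadjusted p of 0.05 or less, 4.04% and 5.02%, against a background of 3.05% and 3.61%. Called in all 3 forelimb libraries and no hindlimb library were 18 members (background 1.31%), and 16 in the reverse position (background 1.29%).

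Anterior and posterior parts of the control hindlimbs differed at single members, while the tests of the class did not pass 0.05. In lists of 40000 summits the log2 ratio was 0.10, -0.12, -0.15 and -0.18 in A and 0.05, -0.21, -0.19 and -0.17 in P for embryos 1 to 4, a difference of 0.04 with p = 0.486 in the two-sided exact permutation test and 0.25 with signs flipped within embryos. With 16 sign flips possible, the test within embryos cannot reach 0.05. Without embryo 1 the difference was 0.04 with p = 0.2 in the exact permutation test, the smallest of which is 0.1. Of 1668 members that passed the filter, limma at an adjusted p of 0.05 called 23 higher in A and 33 higher in P, 1.38% and 1.98%, against 1.47% and 1.68% of all 53363 regions. With the embryo as a block, which the design warrants since both parts come from 1 animal, 2 and 9 were called (0.120% and 0.540% of members, against 0.283% and 0.341% of all regions). Without embryo 1, in the fit without the block, 25 and 19 of the 1668 members were called, where 1.01% and 1.19% of all regions were. The member near Ids, which encodes a lysosomal sulfatase, was at 20474, 23671, 9917 and 13977 in A and was in 1 of 4 P lists, at 47196. Its rank score was 0.57 ± 0.07 (SE) higher in A, with an adjusted p of 0.00731 in limma and of 0.0591 with the embryo as a block, which ends the call. Without embryo 1 it was 0.60 with an adjusted p of 0.0492 in limma. A member with 3 matches near Gm9687 was at 15071, 13791, 19355 and 16922 in P, and at 40490 or lower in the list in the 3 A lists that held it. It was lower in A by 0.59 (SE 0.04), with an adjusted p of 0.000481 in limma and of 0.0422 with the block, and without embryo 1 by 0.58 with an adjusted p of 0.00881.

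Libraries of Etv2-EYFP+ or Shh-EGFP+ cells were also set against those of E9.5, anterior and CKO limb. In lists of 10000 summits the log2 ratio was -0.28, -0.39 and -0.60 in pools 748, 753 and 758, averaged over both limbs, and -0.67 in the posterior library. The other 9 libraries gave -0.94 to -0.41, a range that held 2 of these 4 values and overlapped them. Means were -0.48 ± 0.18 (SD, n = 4) and -0.64 ± 0.16 (SD, n = 9), and the difference of 0.16 had p = 0.143 in a two-sided exact permutation test. Adjusted over the 6 comparisons of this ratio by the Benjamini-Hochberg method, the exact permutation p were 0.428 here and for Etv2OE and 0.786 to 0.9 for the others. With the matches counted in 200 bp, where 688 regions had 2 or more, it was 0.34 with p = 0.0028 in the same exact test, not adjusted for the alternatives tried, and with a shorter ETS motif it was -0.04. Limb, stage and sorting differ along with Etv2 between these libraries and cannot be told apart.

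The 4 members at promoters of listed genes were held by 29 to 32 lists. Rps13, a protein of the small ribosomal subunit, has 2 matches 17 bp apart at its start, and its summit was in all 32 lists, at places 1976 to 14592. The promoter of Rpl36a, of the large subunit, was in all 32 lists as well, at 1218 to 9136, and that of Rps3 in 31, the anterior list lacking it. Elk3, an ETS factor of endothelium and mesenchyme that mostly represses, has 2 matches 33 bp apart and was in 29 lists, at 10144 to 36476. It was missing from control A embryo 2, CKO E10.5 replicate 2 and CKO E10.25 replicate 2. Over all lists its summits ran from position 93310209 to 93311362, which is wider than the 500-bp window that was searched.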

How the data were processed

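The authors aligned paired-end ATAC-seq reads to mm10 with Bowtie2 (version 2.2.4 per the labels), kept unique alignments, removed duplicates, shifted read starts for the Tn5 cut and ran MACS2 on every library (version not given in the sources used here). Every summit in the deposited files carries the −log10 of its q-value, down to a q-value of 0.05, and these values served only to rank summits within a list. Regions were built from 1234971 summits, which formed 150776 chains, of which 53022 in 1 list only were left out. Sequence was taken from GRCm38.p6 and genes from GENCODE M21. Intergenic here means outside the genes and promoters of that annotation, and other annotations were not searched.

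A library called a region when the equal-length top of its list (the largest multiple of 5000 that every list of the comparison allows) held a summit there. A chain of summits can be longer than the 500-bp window, so a summit of a region can lie outside the searched part. Log2 ratios were compared over embryos, pools or libraries by two-sided exact permutation tests. Rank scores (list length plus 1 minus rank, divided by list length) were fitted over all regions called in at least 2 libraries with limma 3.58.1 in R 4.3.3 and Benjamini-Hochberg adjustment, with A and P of an embryo averaged in the Etv2OE comparison. limma borrows spread across regions, and regions absent from a whole group have no spread there. Python 3.11.15 scripts were tested on simulated data. The limma fit was tested likewise, with 200 regions given a fixed shift in rank score in each comparison. It recovered 105 for Etv2OE against control, 42 at E10.25 and 56 for anterior against posterior. For E10.5 HL EYFP+ against CKO and for forelimb against hindlimb it recovered 0. The simulated scores were not held at 0 or above, as rank scores are. On the real lists the fit for E10.5 HL EYFP+ against CKO called 452 regions higher and 1042 lower. The recovery is thus no measure of power on the real lists. Replicates are embryos in the Etv2OE experiment and pooled libraries elsewhere. Forelimb and hindlimb share pools, and their deviations correlated at 0.277 to 0.575 within a pool. Anterior and posterior libraries share embryos, at 0.0135 to 0.0936.

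Named members were those at the ZRS, the 5 with the most matches, up to 3 a side called in every library of one side and none of the other in each comparison, by difference in rank score, and promoters of listed genes. Members named by difference in rank score were picked from the same lists that gave their limma p, which is thus no separate support. Members, lists and rules were chosen with earlier results of these data known. Alternatives were whole lists, a 200-bp window, a shorter motif, regions in at least 1 or 5 lists, no promoters, no regions over 50% masked, matching on GC content, no filter, a replicate block and leaving out each replicate. Leaving control embryo 1 out of the calls on one side alone, both its libraries out of A against P, and it out of the classes of members, was added after seeing the data. The splits of members by match number, spacing, word and promoter, and the distance of summits to matches, were also chosen after seeing the data. Blocking on the embryo or pool was an alternative to the unblocked fit.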

Additional observations from a re-analysis of the deposited data

Results flagged for a closer look

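Dixon's test marked 5 of the 17 groups of values in which it was run, asking whether the gap of the highest or lowest value to its neighbour is large for the range of the group, and chance marks about 1 in 20. Of these, 4 are control embryo 1, whose values count more than once because the comparisons share it. Its log2 ratio of members over regions with 1 match was 0.11 in the whole A list, where the other control embryos had -0.16 to -0.12. In lists of 30000 summits it was 0.0233 against -0.23 to -0.20 in the other control embryos, and -0.00319 against -0.25 to -0.21 in the P libraries alone. In P lists of 40000 summits it was 0.0479 against -0.21 to -0.17. The remaining value is that of the CKO library E10.25 replicate 2, -0.73 in the whole list against -0.30 to -0.19 in the other CKO libraries of E10.25, and its list was the shortest of that group, with 15626 summits. What set these libraries apart was not tested.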

How the results depend on the processing

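The difference of log2 ratios between Etv2OE and control embryos kept its sign and stayed over a p of 0.05 in all 10 alternatives other than leaving out embryos (0.07 to 0.22), and was 0.13 to 0.22 when each embryo was left out. The differences that were near 0 changed sign. E10.5 HL EYFP+ against CKO gave 0.0411 in whole lists, 0.0539 with a 200-bp window, 0.0298 for regions in at least 5 lists, 0.000272 without masked regions, 0.00842 after matching on GC content and -0.0451 to 0.0269 when replicates were left out. Forelimb against hindlimb gave 0.0320 in whole lists and -0.0618 to 0.0266 when replicates were left out. Anterior against posterior gave -0.0211 to 0.103 when replicates were left out, the lowest without the A library of embryo 1. The shorter motif turned E10.25 wild type against CKO to -0.0479 and the Etv2-EYFP+ or Shh-EGFP+ contrast to -0.0439, and the 200-bp window raised the latter to 0.34, past the threshold. Leaving out replicates gave 0.06 to 0.15 and 0.09 to 0.22 for this pair of contrasts.

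Counts of members called by limma depended more on the settings. For E10.5 HL EYFP+ against CKO, 16 higher and 33 lower became 42 higher in whole lists, 9 higher with no filter, and 0 to 7 higher and 0 to 77 lower when a library was left out, with 0 for each EYFP+ pool and 76 or 77 lower without a CKO library, where the lone CKO library left is assumed to vary like the EYFP+ pools. For E10.25, 15 higher and 1 lower became 79 and 2 in whole lists, 0 lower with no filter, and 8 to 20 higher and 0 to 2 lower when a library was left out, with 8 higher without CKO replicate 1 or 5. For anterior against posterior, 23 and 33 became 100 lower in whole lists, 7 and 12 with no filter, and 10 to 35 and 19 to 37 when libraries were left out, with 35 higher without the A library of embryo 2, 12, 10 and 11 higher without the P library of embryo 2, 3 or 4, and 19 lower without both libraries of embryo 1. Forelimb against hindlimb gave 3 higher and 1 lower in whole lists and 1 lower with no filter. The replicate block gave 2 higher and 9 lower for anterior against posterior, and 0 in both directions for E10.5 HL EYFP+ against CKO and for E10.25, where libraries share only a number and those without a partner (pool 758, CKO replicates 3 to 5) carry no weight, so that the block and the smaller number of libraries cannot be told apart (deviations correlated at -0.0252 to 0.0312 and 0.0120 to 0.0218), and every named member called there lost its call. Of the named members called between anterior and posterior, only the one near Gm9687 was still called. The Etv2OE comparison has no pairing, since embryos differ between its groups. Without control embryo 1, 3 members in place of 0 were called in all Etv2OE libraries alone. The ZRS score for forelimb against hindlimb was -0.315 to 0.00885 when a pool was left out, the sign changing only without hindlimb pool 758. The cause of these changes was not tested. Read depth is unknown, so how much of a missing summit is due to depth cannot be said.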
